A study of Mus musculus with 48 samples.

Results

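The genes described here are 10 markers of the choroid plexus epithelium: Ttr, Folr1, Kl, Clic6, Otx2, Sostdc1, Cldn2, Aqp1, Slc4a5 and Calml4. They were taken by symbol from a table of 24444 genes, and all 10 were found. The table came from bulk polyA RNA-seq of the dissected cortex, one hemisphere per mouse, of 48 male C57BL/6J mice. Wild-type (WT) littermates were compared with Chd8 V986*/+ mice, which carry 1 copy of Chd8, a chromatin remodelling gene, interrupted by tandem stop codons that were inserted by genome editing in every cell of the animal. The line descended from 1 male founder. Each of 4 ages, embryonic day 14.5 (E14.5) and 1, 6 and 12 months, had 6 WT and 6 V986*/+ mice.

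The choroid plexus is a vascular fold that hangs into the ventricles of the brain, and its single-layered epithelium secretes the cerebrospinal fluid. The epithelium moves water, bicarbonate, chloride and sodium into the ventricle, holds its cells together with leaky tight junctions, carries folate and thyroid hormone towards the brain, and releases signalling proteins. The plexus of the lateral ventricles arises next to the cortical hem, at the medial edge of the embryonic cortex, and is not part of the cortical wall. The labels give the tissue as dissected cortex and name no choroid plexus.

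Values are variance-stabilised expression (VST) on a log2 scale, in which a difference of 1 is close to a 2-fold difference for well expressed genes and smaller than the true fold for low ones. The value that occurred most often, 2.1433, served as the floor, and all 10 genes lay at least 0.5 above it on average in every comparison. The table holds no read counts, so the depth behind each value is unknown. Chd8 itself was lower in each V986*/+ mouse than in every WT mouse of the same age, by 0.54 to 0.67 on average. The 8 defining cortex markers were present at every age, with a mean between 10.78 and 11.92 in single mice. No 2 columns were identical, and the 120 pairs of mice of the same group differed by a median of 0.0848 to 0.294 per gene. One WT mouse at E14.5, replicate 5, stood apart in markers of midbrain, hindbrain and spinal cord, with a mean of 6.07 over 22 genes against 2.58 to 4.10 in the other 11 embryos.

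In the mm9 annotation the genes lie on different chromosomes, with the exception of Aqp1 and Slc4a5. The gene of the folate receptor Folr1 is at chr7:109006845-109019302 on the minus strand, and that of the transcription factor Otx2 is at chr14:49277354-49287319 on the minus strand. Chd8, the edited gene, lies on the same chromosome as Otx2, at chr14:52817826-52857466, and any effect of this position on Otx2 was not tested. The water channel gene Aqp1 is at chr6:55286426-55298549 and the bicarbonate transporter gene Slc4a5 at chr6:83169822-83254939, both on the plus strand. Kl is at chr5:151755182-151796384, Clic6 at chr16:92485981-92541488, Sostdc1 at chr12:37040756-37045039, Cldn2 at chrX:136335367-136345925 and Calml4 at chr9:62705911-62723725, all on the plus strand. Values are per gene over all exons.

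Sequences are given for 3 promoter windows that carried 1 of 2 short motifs. Whether either motif had a part in the shared rise and fall of these genes between mice was not tested. RefSeq windows of the 250 bases before the transcription start, in the build GRCm38.p6, were at hand for 6 of the 10 genes, with 9 windows in all. The windows were searched on both strands, at any distance from the start, for 2 motifs. These were GGATTA, the core bound by Otx-type homeodomain proteins, and TATAAA, the letters of the TATA box. A match of the letters alone was not taken as a working site. The first occurred in 6.25% of all 32851 windows and in 1 of the 9, that of Otx2 itself. The second occurred in 12.4% of all windows and in 3 of the 9, those of Cldn2, of Slc4a5 and of another start of Otx2 (chr14:48667645-48667894, with the motif 192 bases before that start, not printed). The windows below read 5′ to 3′ on the strand of the gene, and capitals mark the motif, which starts 35 bases before the start site in Cldn2, 127 in Slc4a5 (as TTTATA, the reverse strand) and 211 in Otx2. They are at chrX:139800558-139800807, chr6:83237125-83237374 and chr14:48665110-48665359.
Cldn2: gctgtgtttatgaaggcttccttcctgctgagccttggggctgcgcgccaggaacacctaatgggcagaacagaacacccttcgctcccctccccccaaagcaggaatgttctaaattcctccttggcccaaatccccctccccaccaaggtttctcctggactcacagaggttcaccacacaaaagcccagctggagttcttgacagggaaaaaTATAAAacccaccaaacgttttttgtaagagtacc
Slc4a5: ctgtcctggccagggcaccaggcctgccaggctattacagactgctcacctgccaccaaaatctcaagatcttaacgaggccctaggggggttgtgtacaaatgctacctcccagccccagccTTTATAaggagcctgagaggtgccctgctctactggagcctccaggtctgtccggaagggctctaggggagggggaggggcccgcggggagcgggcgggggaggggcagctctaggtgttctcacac
Otx2: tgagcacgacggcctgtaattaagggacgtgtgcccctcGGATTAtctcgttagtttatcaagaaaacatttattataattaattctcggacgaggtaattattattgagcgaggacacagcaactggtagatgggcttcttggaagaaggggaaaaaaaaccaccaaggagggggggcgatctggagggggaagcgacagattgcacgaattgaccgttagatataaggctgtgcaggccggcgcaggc

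The mean over the 36 postnatal mice was below that of the 12 embryos for 9 of the 10 genes (all but Kl). Pooled over the groups, all 10 were more uneven between mice after birth than between embryos. Ttr, which encodes transthyretin, the carrier of thyroid hormone and retinol-binding protein in cerebrospinal fluid, measured 13.08, 12.45, 12.65, 13.03, 13.17 and 13.53 in WT replicates 1 to 6 at E14.5, and 13.30, 13.29, 12.77, 13.30, 12.74 and 12.89 in V986*/+ embryos. The 12 embryos thus lay within 1.09 of each other, a 2.12-fold range on this scale. At 1 month Ttr was 8.28, 12.01, 9.99, 9.48, 9.76 and 13.50 in WT mice, and 13.80, 12.89, 8.98, 11.95, 10.70 and 13.67 in V986*/+ mice. The highest of these 12 mice reached the embryonic level and the lowest lay 45.7-fold below the highest. At 6 months the WT mice measured 8.45, 13.94, 10.06, 9.89, 13.07 and 9.69, and the V986*/+ mice 9.22, 9.28, 12.39, 7.98, 9.29 and 12.29. The WT values at 12 months were 9.57, 9.65, 12.22, 9.31, 10.13 and 9.94, and the V986*/+ values 12.92, 8.55, 8.20, 11.98, 8.09 and 8.55. High and low mice occurred in both genotypes at each postnatal age, and over the 36 postnatal mice the range of Ttr was 62.4-fold. In bulk tissue, fewer cells of a type and less RNA per cell cannot be told apart, and this holds for every level given here.

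**Figure D1:**
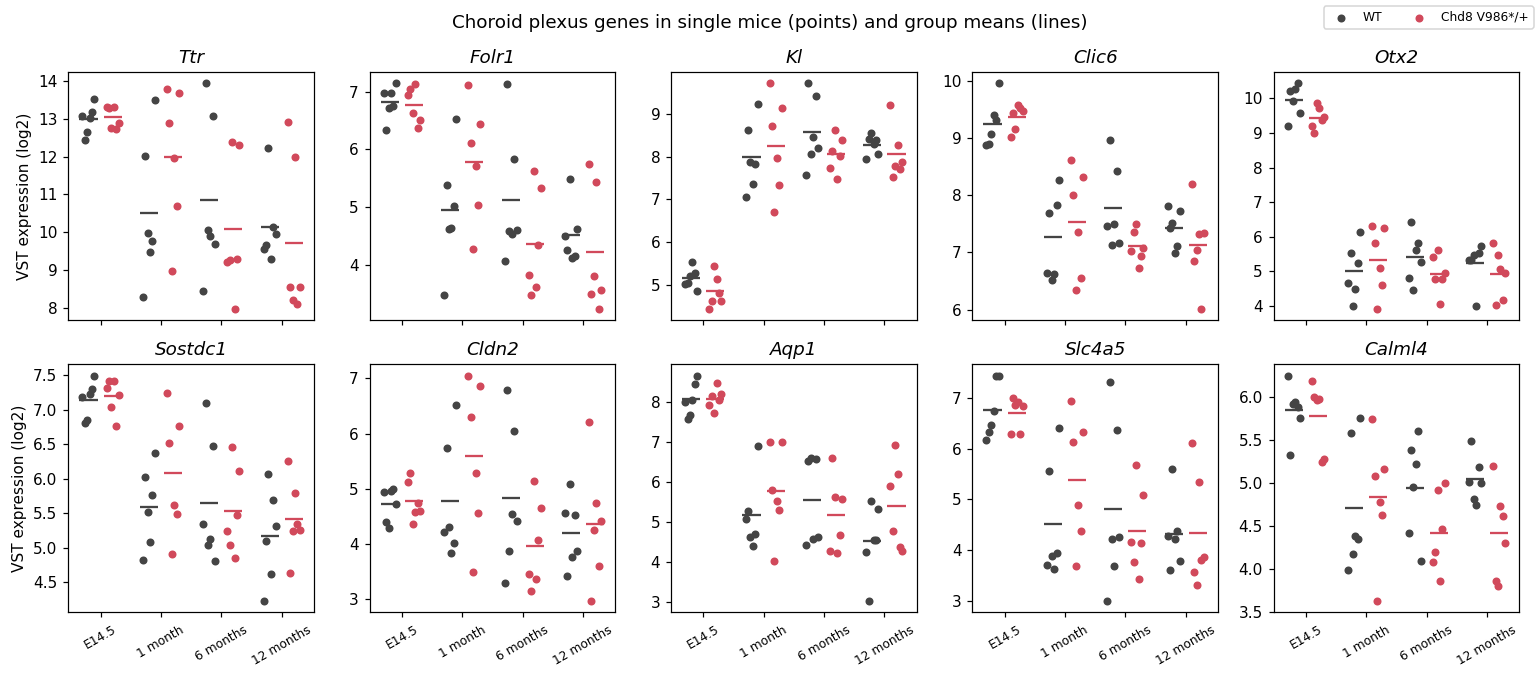
VST expression (log2, y axis) of each of the 10 genes in 48 single mice by age (x axis), with WT mice in grey and V986*/+ mice in red; points are mice and lines are means of 6. For Ttr the 12 embryos lie between 12.45 and 13.53, while the 36 postnatal mice spread from 7.98 to 13.94.

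Among the transport genes, Slc4a5, a sodium bicarbonate cotransporter of the epithelium, was between 6.17 and 7.44 in the 12 embryos, with a mean of 6.77 ± 0.55 (SD, n = 6) in WT and 6.70 ± 0.32 in V986*/+ embryos. At 6 months its WT values ran from 2.99 to 7.31 with a median of 4.24, so that single mice lay both far below and at the embryonic level. Aqp1, the water channel of the ventricular membrane, was 7.58 to 8.67 in embryos and 3.02 to 7.02 in postnatal mice. Every postnatal mouse was below every embryo for this gene, and also for Otx2 (8.99 to 10.44 in embryos, 3.92 to 6.44 after birth). For Kl every postnatal mouse was above every embryo. Between ages, the share of all genes without overlap was taken only for WT mice at E14.5 and 1 month, where it was 68.5%. Clic6, of the chloride intracellular channel family, fell from 9.25 ± 0.41 in WT embryos to 7.26 ± 0.76 at 1 month. Cldn2, a claudin that forms cation and water pores in tight junctions, was 4.72 ± 0.31 in WT embryos and 4.77 ± 1.09 in WT mice at 1 month, where the 6 values ran from 3.84 to 6.52.

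Folr1, the folate receptor that carries folate across the epithelium, was 6.82 ± 0.28 in WT embryos and 4.94 ± 1.01 at 1 month, when its lowest, median and highest WT values were 3.49, 4.82 and 6.53. Otx2, a homeodomain transcription factor needed to form and maintain the plexus, was the gene with the largest drop: WT embryos measured 9.19 to 10.44, and WT mice at 1 month 5.01 ± 0.77 with a highest value of 6.13. Sostdc1, a secreted antagonist of BMP and Wnt signals, was 7.15 ± 0.27 in WT embryos and 5.60 ± 0.58 at 1 month. Calml4, a calmodulin-like protein, was 5.84 ± 0.30 in WT embryos and 4.71 ± 0.76 at 1 month. Kl, which encodes klotho, the co-receptor of the hormone FGF23, went the other way. Its WT embryos measured 4.87 to 5.53 and its WT mice at 1 month 7.05 to 9.23, so that the groups did not overlap, as in 68.5% of all genes for this step.

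From E14.5 to 1 month, 9 of the 10 genes changed in WT mice by limma at an adjusted p below 0.1 (Benjamini-Hochberg over all genes tested), and 8 in V986*/+ mice. Of all genes tested, 85.7% changed in WT and 86.1% in V986*/+ mice, so a count this high is not particular to these genes. In WT mice, 8 were lower (42.3% of all genes): Otx2 by -4.93 (SE 0.31, adjusted p = 3.6e-10), Aqp1 by -2.92 (SE 0.34), Ttr by -2.48 (SE 0.65, adjusted p = 0.0023), Slc4a5 by -2.25, Clic6 by -1.99, Folr1 by -1.87, Sostdc1 by -1.55 and Calml4 by -1.14. Kl was higher (43.4% of all genes) by 2.83 (SE 0.29) in WT and by 3.41 (SE 0.40) in V986*/+ mice. The median change of the 10 genes was -1.93 in WT and -1.08 in V986*/+ mice, against 0.02 in both for all genes tested.

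Ttr and Cldn2 missed the threshold in V986*/+ mice. Ttr had a mean of 12.00 at 1 month against 13.05 at E14.5 (SE of the difference 0.63, adjusted p = 0.13) and passed when single mice at 1 month were left out: by -1.41 without replicate 1 (adjusted p = 0.041), by -1.23 without replicate 2 (adjusted p = 0.0998) and by -1.38 without replicate 6 (adjusted p = 0.0496). Cldn2 differed by 0.81 (SE 0.49, adjusted p = 0.131) and passed without replicate 3 at 1 month, by 1.24 (adjusted p = 0.0070), or without replicate 5, by 1.02 (adjusted p = 0.071). In WT mice the difference of Cldn2 was 0.05 (SE 0.39), and it ran from -0.30, without replicate 6 at 1 month, to 0.23 when single mice were left out. These limma values thus rested on which mice at 1 month were in the group.

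Later steps moved few of the 10 genes. These comparisons share a group with the step before them, so their changes are not independent. From 1 to 6 months none passed in WT mice, where 24.6% of all genes did. In V986*/+ mice 2 passed, where 26.8% of all genes did (12.8% lower): Folr1 was lower by -1.41 (SE 0.45, adjusted p = 0.035) and Cldn2 by -1.63 (SE 0.53, adjusted p = 0.038). Ttr differed by -1.92 over the same step (SE 0.83, adjusted p = 0.12). It passed without replicate 3 at 1 month, by -2.53 (adjusted p = 0.026), and without replicate 3 at 6 months, by -2.39 (adjusted p = 0.053), or replicate 6 at 6 months, by -2.37 (adjusted p = 0.060). The number of genes of the set that passed in this step was 2 to 5 when single mice were left out. From 6 to 12 months none passed in either genotype, where 0.00579% of all genes passed in WT and 3.43% in V986*/+ mice. At an unadjusted p below 0.05 these shares corresponded to 1167 and 2744 genes, and of the 10 only Aqp1 in WT mice was among them, with a difference of -1.02 (adjusted p = 0.72).

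The spread between mice of the same group, pooled over groups, was larger after birth for each of the 10 genes, while that of the median gene was smaller. This did not hold in every single group. In WT mice at 12 months the SD was below that of WT embryos for Kl (0.228 against 0.235), Clic6 (0.325 against 0.408) and Calml4 (0.271 against 0.300). Pooled over the groups, the SD of Ttr was 0.34 at E14.5 and 1.86 over the postnatal ages, 5.52 times as large. Cldn2 went from 0.33 to 1.09, Folr1 from 0.30 to 0.97, Aqp1 from 0.35 to 1.02 and Sostdc1 from 0.26 to 0.72. Slc4a5 went from 0.45 to 1.17 and Kl from 0.32 to 0.73. The smallest increases were those of Clic6 (0.33 to 0.67), Otx2 (0.41 to 0.73) and Calml4 (0.36 to 0.57), the last being 1.61 times as large. Over 17311 genes the median SD was 0.185 at E14.5 and 0.145 after birth, a median ratio of 0.884. Among those genes, the pooled postnatal SDs of the 10 ranked between percentile 98.7 for Calml4 and 99.98 for Ttr, which is given as a description with no test. Single groups could rank lower, such as Kl in WT mice at 12 months, at percentile 63.9 of the genes tested at that age.

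The same mice were high or low for most of the 10 genes. At 1 month, for example, V986*/+ replicate 1 had the highest Ttr of that age (13.80), and it also had 7.11 for Folr1, 6.95 for Slc4a5, 7.05 for Cldn2 and 9.71 for Kl. V986*/+ replicate 3 of the same age had 8.98 for Ttr, 4.28 for Folr1, 3.69 for Slc4a5, 3.49 for Cldn2 and 6.71 for Kl. At 6 months WT replicate 2, with the highest Ttr of all 48 mice (13.94), had 7.13 for Folr1, 7.31 for Slc4a5 and 6.80 for Cldn2, all the highest of their age. For Ttr, mice of one genotype and one age thus differed by more than the group means of embryos and postnatal mice did.

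**Figure D2:**
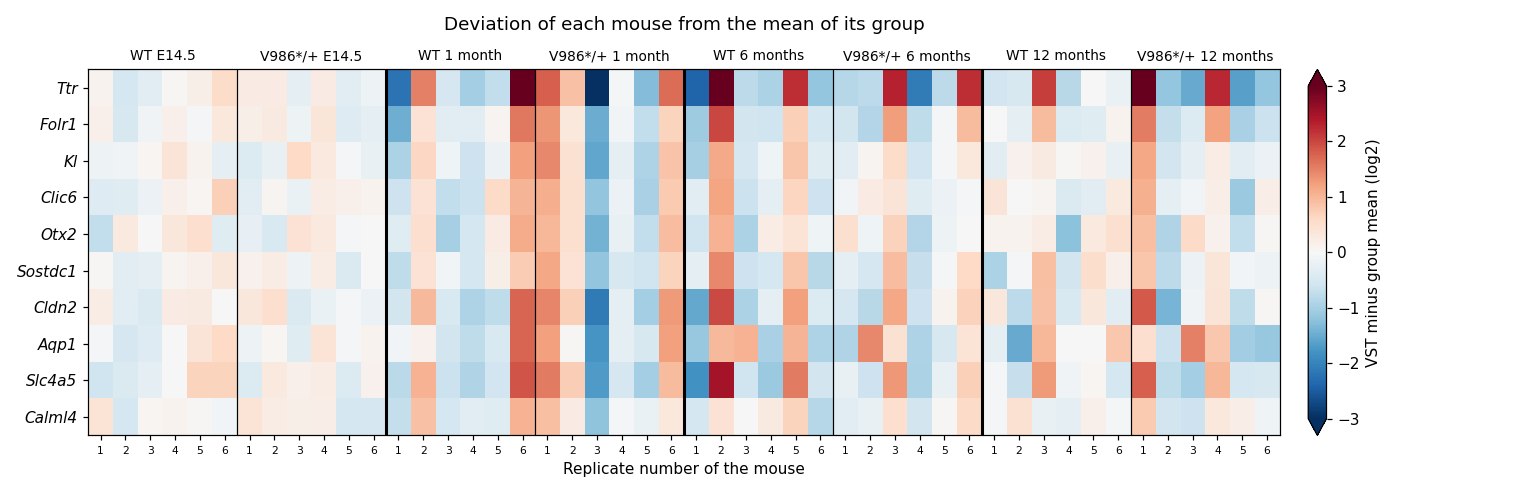
Each column is a mouse (replicate number on the x axis, groups separated by lines), each row is a gene, and the colour is the VST value minus the mean of the 6 mice of that group (log2; red higher, blue lower, colours end at -3 and 3). At E14.5 the columns are pale, and after birth whole columns are red or blue, as in V986*/+ replicates 1 and 3 at 1 month.

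Correlations with Ttr were computed within each age over 12 mice, after the mean of each genotype had been subtracted, with 100000 permutations of mice within genotype and Benjamini-Hochberg adjustment over 36 relations (9 genes at 4 ages). At 1 month all 9 genes passed at an adjusted p below 0.05. Pearson's r was between 0.88 for Clic6 and 0.97 for Kl (adjusted p = 0.00026 to 0.0010), and Spearman's rho between 0.85 and 0.97 (adjusted p = 0.00036 to 0.0050, both by permutation). Without the 2 mice farthest from the median of Ttr, r was 0.86 to 0.99 and all 9 passed again. The deposited values had been adjusted between replicates 1 to 3 and replicates 4 to 6, so r was also taken within each set of 6 mice, where it was 0.81 to 0.98 and 0.83 to 0.99. Every gene of the set rose and fell with Ttr between mice of this age, in both sets.

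At E14.5 the relations were fewer. Sostdc1 had an r of 0.94 with Ttr (rho 0.93, adjusted p = 0.00026 by permutation), Folr1 0.89 (rho 0.89, adjusted p = 0.0023), Aqp1 0.81 (rho 0.70, adjusted p = 0.0082) and Cldn2 0.64 (rho 0.64, adjusted p = 0.048). Without the 2 embryos farthest from the median of Ttr, Sostdc1 passed again with an r of 0.92, while Folr1 (r 0.83, adjusted p = 0.062), Cldn2 (r 0.75, adjusted p = 0.062) and Aqp1 (r 0.62, adjusted p = 0.14) kept their sign and no longer passed by the permutation test. Cldn2 had an r of 0.92 within replicates 1 to 3 and of -0.83 within replicates 4 to 6, so its relation did not hold within the sets. That of Slc4a5 was also uneven, with an r of -0.42 within replicates 1 to 3 and of 0.76 within replicates 4 to 6. Clic6, Slc4a5 and Calml4 had r values of 0.54 to 0.56 and did not pass. Kl (r -0.28) and Otx2 (r -0.38) did not pass either and had the opposite sign. Over all 45 pairs of the 10 genes the median r was 0.38 at E14.5, with 32 pairs positive, and 0.92 at 1 month, with 45 positive. Since all genes of a mouse come from 1 library, these pairwise values are a description.

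At 6 and 12 months Ttr split the mice into a lower and an upper cluster, separated by a gap of 0.374 and 0.384 of the range of that age, and no pooled r is given. At 6 months 8 mice lay between 7.98 and 10.06 and 4 between 12.29 and 13.94, the latter being WT replicates 2 and 5 and V986*/+ replicates 3 and 6. At 12 months 9 mice lay between 8.09 and 10.13 and 3 between 11.98 and 12.92, namely WT replicate 3 and V986*/+ replicates 1 and 4. Within the lower cluster r was 0.05 to 0.84 at 6 months and 0.01 to 0.49 at 12 months, and none of 9 genes passed at either age by the permutation test (adjusted p = 0.34 to 0.98 and 0.49 to 0.98). In the upper mice, Folr1, Sostdc1, Cldn2 and Slc4a5 were each above all mice of the lower cluster at both ages. Among all genes tested, 0.354% at 6 months and 0.22% at 12 months had their upper mice above all others. At 6 months, for example, Folr1 was 5.33 to 7.13 in the 4 upper mice, all above the 8 others, and at 12 months 5.43 to 5.75 and 3.24 to 4.62. Kl, Clic6, Otx2, Aqp1 and Calml4 overlapped between the clusters at both ages.

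**Figure D3:**
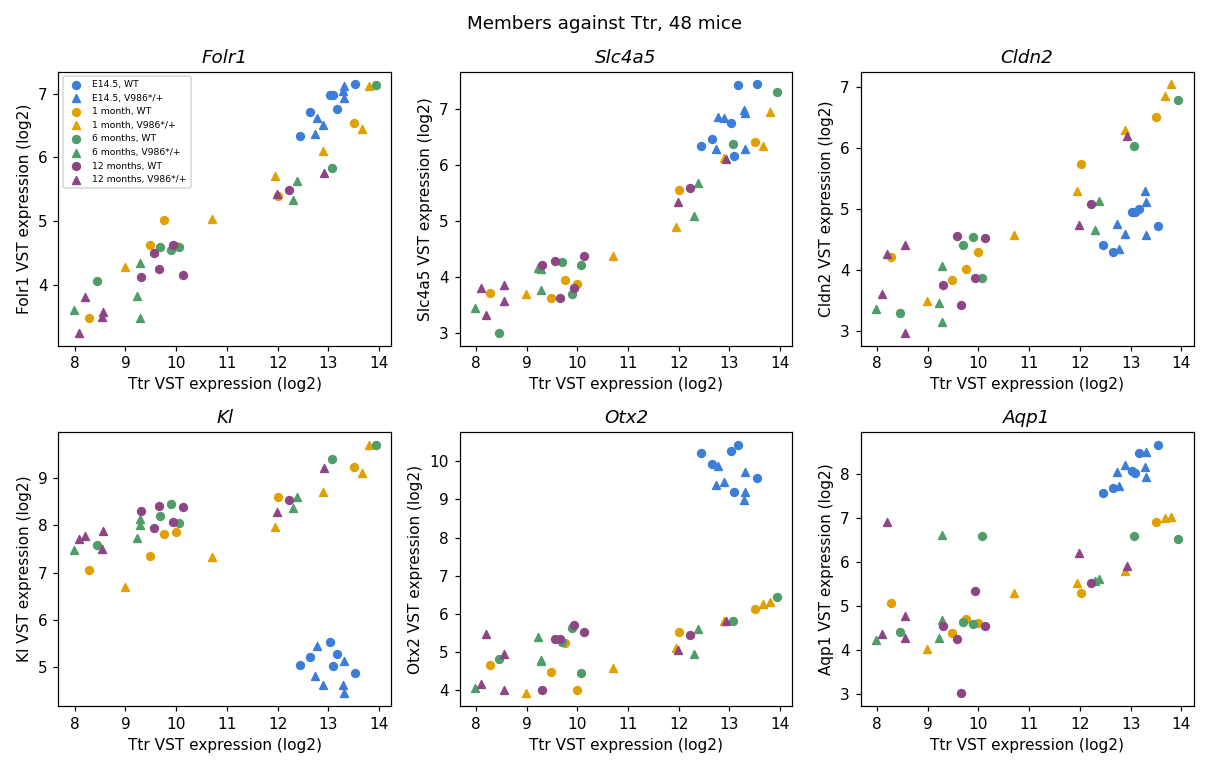
VST expression (log2) of 6 of the genes (y axes) against that of Ttr (x axis) in 48 mice, coloured by age, with circles for WT and triangles for V986*/+. After birth Folr1, Slc4a5, Cldn2 and Kl rise with Ttr, Otx2 rises less steeply, several Aqp1 points lie above the trend, and embryos lie apart in the Kl and Otx2 panels.

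How far each gene moved with Ttr also differed. Over the 36 postnatal mice, with group means removed, the slope on Ttr was 0.60 for Slc4a5, 0.53 for Cldn2 and 0.50 for Folr1. It was 0.37 for Aqp1, 0.35 for Kl, 0.34 for Sostdc1, 0.29 for Otx2, 0.28 for Clic6 and 0.25 for Calml4, all in log2 units per log2 unit of Ttr. These pooled slopes include 6 and 12 months, when Ttr was clustered, and the order was not the same at 1 month alone. There the slope was 0.64 for Cldn2, 0.62 for Slc4a5, 0.52 for Folr1, 0.50 for Kl and 0.48 for Aqp1. It was 0.41 for Otx2, 0.40 for Clic6, and 0.37 for Calml4 and Sostdc1. The scatter around the pooled lines was smallest for Folr1 (residual SD 0.24) and largest for Aqp1 (0.70). The slopes are affected by the scale, which compresses differences of genes near the floor.

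Aqp1 departed from the others in a few mice. WT replicate 3 at 6 months had 6.60 for Aqp1 with a Ttr of 10.06, V986*/+ replicate 2 at 6 months had 6.61 with a Ttr of 9.28, and V986*/+ replicate 3 at 12 months had 6.92 with a Ttr of 8.20. The last of these lay 2.06 above the postnatal line. In the same mice, Omp, the olfactory marker protein of olfactory sensory neurons, was 7.37, 7.52 and 8.77, against medians of 3.86 at 6 months and 3.66 at 12 months. S100a5, which marks the same neurons, was 6.51, 6.51 and 7.67. Doc2g and Tbx21, both known from the olfactory bulb, were 9.12, 8.99 and 9.95, and 5.90, 6.45 and 6.75. Their medians were 6.37 and 3.69 at 6 months, and 6.41 and 3.62 at 12 months. Doc2g was also raised in mice with a lower Omp. It was 7.94 in V986*/+ replicate 2 at 12 months (Omp 4.23, Aqp1 4.77) and 7.65 in WT replicate 1 at 6 months (Omp 3.81, Aqp1 4.42). Omp was also high in V986*/+ replicate 4 (7.02) and WT replicate 6 (6.81) at 12 months, whose Aqp1 was 6.21 and 5.34. It was raised less in WT replicate 1 (5.64) and V986*/+ replicate 6 (5.76) at 1 month and in V986*/+ replicate 5 at 12 months (5.74), whose Aqp1 was 5.08, 7.01 and 4.37. The first and the last of these mice had an Aqp1 below the median of their age (5.30 and 4.66). These 4 genes were chosen after their values had been seen, and their part in the Aqp1 values was not tested.

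Marker lists of neighbouring tissues were set beside Ttr in the same way, as the mean of each list in each mouse (32 relations, 8 lists at 4 ages). At 1 month the mean of 32 other choroid plexus genes had an r of 0.91 with Ttr (rho 0.90, adjusted p = 0.0036 by permutation) and that of 11 ependymal genes 0.77 (adjusted p = 0.034), although its rho of 0.64 did not pass (adjusted p = 0.18). At E14.5 the mean of the other choroid plexus genes had an r of 0.63 with Ttr and did not pass (adjusted p = 0.23 by permutation). The ependyma is the ciliated lining of the ventricles. Its list also passed at E14.5, with an r of 0.73 (adjusted p = 0.034) but not by its rho of 0.77 (adjusted p = 0.056), when 2 of its 11 genes were under the filter on low values. It ranged from 4.71 to 5.58 in WT and 4.74 to 5.45 in V986*/+ mice at 1 month. Without the 2 mice farthest from the median it kept an r of 0.67 at 1 month and no longer passed (adjusted p = 0.22). At E14.5 the ependymal list then had an r of 0.87 (adjusted p = 0.044) and a rho of 0.88 (adjusted p = 0.038, both by permutation), which passed. Lists of meninges, red blood cells, cortical hem and hippocampus, midbrain to spinal cord, striatum and cortex did not pass at E14.5 or 1 month. Their r values were -0.37 to 0.53 at E14.5 and -0.26 to 0.53 at 1 month. At 6 and 12 months, when Ttr was clustered, pooled values are not given, and within the lower cluster none of the 8 lists passed by permutation. There the r values were -0.68 (striatum) to 0.69 (other choroid plexus genes, both adjusted p = 0.28) at 6 months and -0.50 to 0.57 at 12 months. The lists had been chosen with earlier results of these data known. Their part in the levels of the 10 genes was not tested beyond these relations.

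**Figure D4:**
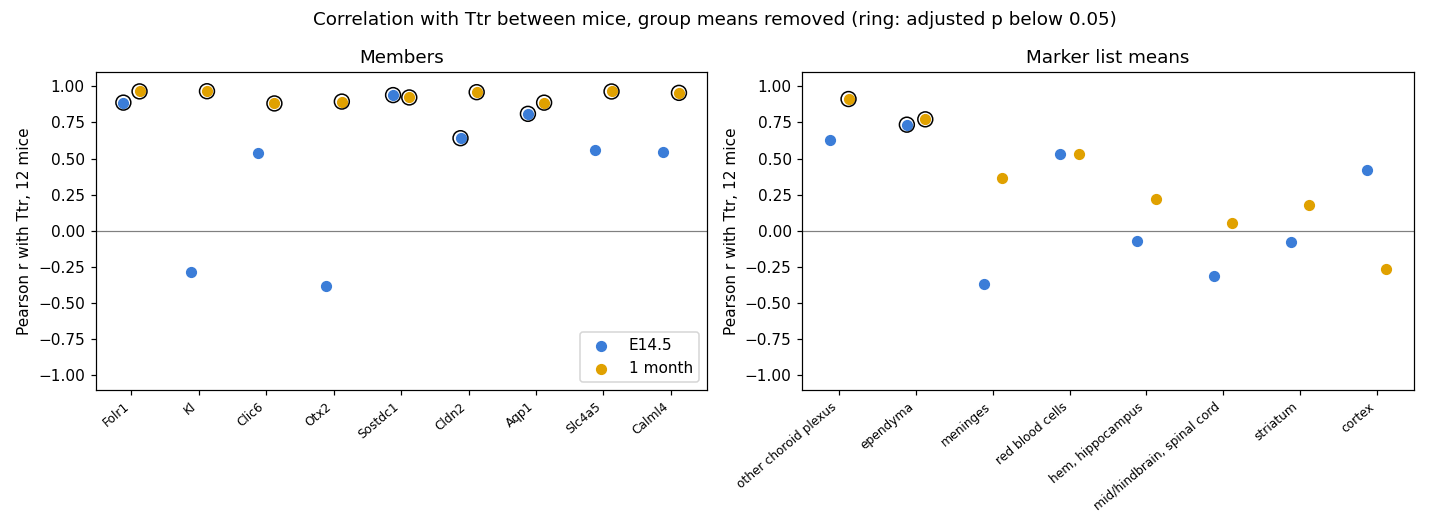
Pearson's r with Ttr over 12 mice (y axis, genotype means removed) at E14.5 (blue) and 1 month (yellow) for the 9 other genes (left) and for the means of 8 marker lists (right); rings mark an adjusted p of Pearson's r below 0.05 by permutation. All 9 genes are ringed at 1 month and 4 at E14.5, and of the lists the other choroid plexus genes (1 month) and ependyma (both ages) are ringed.

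At E14.5 Otx2 and Kl, which did not follow Ttr, were compared with the list of midbrain, hindbrain and spinal cord, a comparison added after the values had been seen. Otx2 is also known as a gene of the embryonic forebrain and midbrain. Its r with the list mean was 0.70 over 12 embryos (rho 0.67), with a permutation p of 0.024 that did not pass after adjustment over the 10 genes (adjusted p = 0.24), and 0.77 without the 2 embryos farthest from the median of the list (adjusted p = 0.052). Kl had an r of 0.40 (adjusted p = 0.53 by permutation), and of 0.60 without those 2 embryos (adjusted p = 0.098). Ttr had an r of -0.31 with the list (adjusted p = 0.79 by permutation), which became -0.89 without those 2 embryos (adjusted p = 0.012). Without them Aqp1 went from -0.08 to -0.76, Sostdc1 from -0.24 to -0.76, Folr1 from -0.43 to -0.72 and Cldn2 from -0.14 to -0.68 (adjusted p = 0.052 for each by permutation). The size of r for these 5 genes thus depended on which embryos were included. For Slc4a5 the sign did too, with an r of 0.28 that became -0.30, and neither value passed (adjusted p = 0.79 and 0.52 by permutation). The list at this age held 7 of 22 genes under the filter. WT replicate 5, which stood apart in this list, had the highest Otx2 of the 12 embryos (10.44), followed by WT replicate 4 with 10.27 and WT replicate 2 with 10.22.

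To find the genes whose pattern was most like that of the set, the group-centred values of the 10 genes were standardised and averaged in each mouse, and 17301 other genes were correlated with this mean over the 48 mice. The 10 highest were Kcne2 (r 0.95), Tmem72 (0.94), F5 (0.91), Enpp2 (0.89), Kcnj13 (0.89), 1500015O10Rik (0.89), Slc2a12 (0.85), Steap1 (0.85), Defb11 (0.82) and Mfrp (0.81). Kcne2 and Kcnj13 are potassium channel genes of the epithelium, Enpp2 encodes autotaxin, which makes lysophosphatidic acid, and F5 encodes a coagulation factor. Of these 10, 8 were on the list of other choroid plexus genes, and Slc2a12 and Defb11 were not. The 10 genes and the list had been chosen with earlier results of these data known, so the counts that follow are a description. Of the 17301 genes compared, the 100 most alike held 26 of the 32 genes of the list. The list had 22 of the 58 genes with an r over 0.5. Its least alike genes were the iodide transporter gene Slc5a5 (r -0.02) and the serotonin receptor gene Htr2c (0.10).

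The other choroid plexus genes were divided between both directions after birth. In WT mice 14 of the 32 were higher at 1 month than at E14.5, 11 were lower and 7 did not pass by limma, against 43.4% higher and 42.3% lower among all genes. In V986*/+ mice these numbers were 15, 9 and 8, against 43.7% and 42.4%. The largest increases in WT mice were those of Slc5a5 (4.05), Enpp2 (3.20), Htr2c (2.64) and the prolactin receptor gene Prlr (2.13). The largest decreases were those of Lmx1a (-4.61), a homeodomain factor of the embryonic roof plate, Kcne2 (-3.53), Wdr86 (-2.36) and the monoamine transporter gene Slc29a4 (-2.34). Of the 4 with the highest mean over all mice, Slc12a2, a sodium, potassium and chloride cotransporter, went from 10.92 ± 0.15 in WT embryos to 11.78 ± 0.09 at 1 month and Enpp2 from 9.79 ± 0.10 to between 12.73 and 13.46. The growth factor gene Igf2 went from 12.53 ± 0.17 to 11.06 ± 0.38 and its binding protein gene Igfbp2 from 11.81 ± 0.17 to 9.98 ± 0.10. These 4 genes are also expressed outside the plexus, and their postnatal spread was smaller than that of Ttr.

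None of the 10 genes differed between V986*/+ and WT mice at any age by limma at an adjusted p below 0.1. All 10 were tested, and the share of all genes that passed was 0.00593%, 0.139%, 0.0927% and 0.0463% in order of age. At an unadjusted p below 0.05 there were 769, 1515, 1310 and 2000 genes, among them Otx2 at E14.5, Clic6 at 6 months and Calml4 at 12 months. Otx2 measured 8.99 to 9.87 in V986*/+ and 9.19 to 10.44 in WT embryos, a difference of -0.50 (SE 0.20, adjusted p = 0.98, exact permutation p = 0.067), or -0.40 without WT replicate 5. Clic6 measured 6.73 to 7.49 and 7.13 to 8.96 at 6 months, a difference of -0.67 (SE 0.26, adjusted p = 0.58, exact permutation p = 0.050). Calml4 measured 3.80 to 5.20 and 4.74 to 5.49 at 12 months, with 5 of 6 V986*/+ mice below all WT mice, and differed by -0.62 (SE 0.22, adjusted p = 0.32, exact permutation p = 0.032). Those 3 exact tests were among 40 run, and the groups overlapped for every gene at every age, while 0.261%, 0.825%, 0.527% and 0.868% of all genes did not overlap at the 4 ages in order.

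Ttr differed by 0.06 (SE 0.17) at E14.5, by 1.49 (SE 0.84, adjusted p = 0.64) at 1 month, by -0.78 (SE 0.90) at 6 months and by -0.42 (SE 0.76) at 12 months. The SE after birth was several times that of the embryos, so the same difference was less detectable after birth than at E14.5. All 10 differences were positive at 1 month and all 10 were negative at 6 months, with medians of 0.55 and -0.52 against -0.0029 and -0.00088 for all genes. Since the 10 genes move together between mice, their signs are not independent. At 12 months 4 were positive, with Aqp1 at 0.87 (SE 0.46, adjusted p = 0.46) the highest, while Slc4a5 (0.02) turned negative under quantile normalization (-0.0090). Whether the genotype difference at 12 months differed from that at E14.5, 1 or 6 months was tested by interaction terms, and none of the 10 genes passed (0 of 10 also at an unadjusted p below 0.05), where 0.0635%, 0.00578% and 0.0578% of all genes did. For Ttr the difference at 12 months minus that at 1 month was -1.91 (SE 1.24, adjusted p = 0.56).

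**Figure D5:**
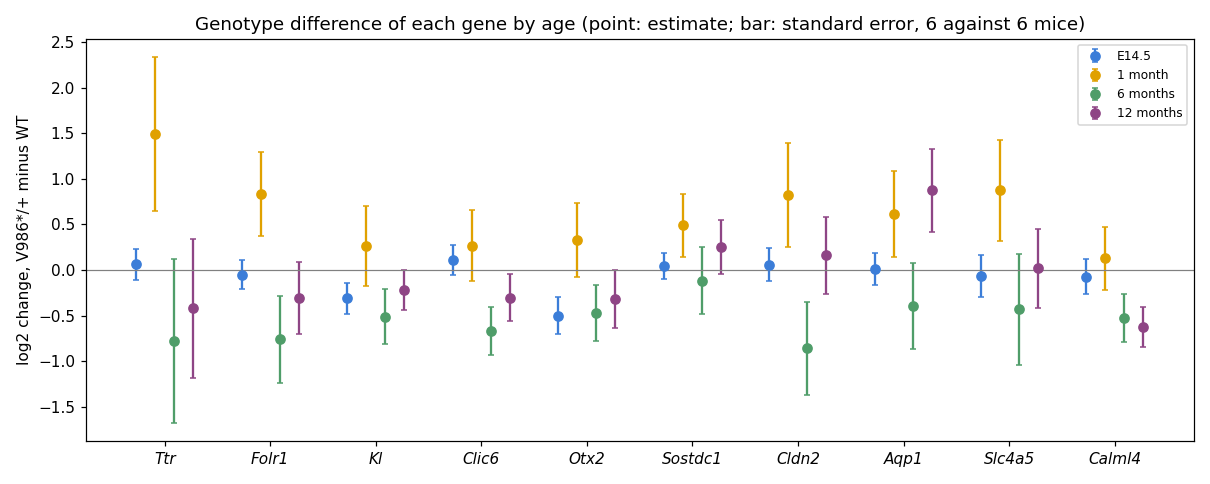
Difference in VST expression (log2, y axis) between V986*/+ and WT mice for each of the 10 genes (x axis) at 4 ages (colours); points are limma estimates and bars their standard errors (6 against 6 mice). Bars are short at E14.5 and long after birth; for Ttr the SE is 0.17 at E14.5 and 0.76 to 0.90 later.

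Of the 32 other choroid plexus genes, 1 passed between genotypes, Slc5a5 at 6 months. It measured 9.35 to 9.57 in V986*/+ and 8.98 to 9.19 in WT mice, which did not overlap (0.527% of all genes did not overlap at this age), and was higher by 0.35, as 0.0522% of all genes were (SE 0.05, adjusted p = 0.032 by limma). Slc5a5 was the gene least like the set between mice, and its SD of 0.09 and 0.08 in these groups was far below those of Ttr, 1.82 and 2.15. At the other ages Slc5a5 was also higher in V986*/+ mice, but did not pass. It differed by 0.35 at E14.5 (SE 0.17, adjusted p = 0.98) and by 0.17 at 1 month (SE 0.06, adjusted p = 0.39). At 12 months it differed by 0.21 (SE 0.07, adjusted p = 0.29, all by limma).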

How the data were processed

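Cortical polyA RNA of 48 mice was sequenced by the authors as stranded paired-end libraries (KAPA, per the methods of the study; the labels name a TruSeq kit). Reads were quality-filtered, trimmed, aligned to mm9 with STAR 2.5.2b and quantified with Salmon 0.11.3. The deposited values are variance-stabilised expression on a log2 scale from DESeq2 (version 1.22.2), 1 value per gene and sample, from which the authors had already removed a batch difference: the means of replicates 1 to 3 and of replicates 4 to 6 were equal for every gene (largest difference 3.4e-14). Such an adjustment lowers the spread between the sets and moves floor values by gene.

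Groups were taken from the sample titles. Replicate numbers come from the labels, and mice were treated as separate animals. A count test was not applicable, so limma 3.58.1 (R 4.3.3) with an intensity trend was fitted to the 12 samples of each comparison. Genes were tested if their mean was at least 0.5 above the floor of 2.1433 (15.7% of values), and called at a Benjamini-Hochberg adjusted p below 0.1 over all genes tested. Interaction terms came from 1 fit of all 48 samples. Levels were also compared by exact two-sided permutation over mice. Correlations used two-sided permutation within genotype (Python 3.11.15, scipy 1.17.1). The limma step was tested on simulated data. Same-numbered WT and V986*/+ mice correlated at 0.012 to 0.578 at E14.5, and not every pair exceeded 0.1 in any comparison, so no block was used.

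The 10 genes and all marker lists were chosen with earlier results of these data known. Of 33 other choroid plexus genes listed, 32 were in the table. The text names all 10 genes, Chd8, the other choroid plexus genes with the largest changes (up to 4 per direction) or the 4 highest means, and the 10 genes most like the set between mice. Alternatives were the threshold, the filter, normalization, the variance model, the replicate block, a common fit and leaving out each mouse; a set covariate, the lower Ttr cluster (genes and lists) and the midbrain to spinal cord list were added after the data had been seen. Promoter sequences are from RefSeq (GRCm38.p6) and coordinates of genes from the mm9 annotation. Ttr is given without sequence or position. Per-gene read depth is unknown, so the number of mice limits the precision.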

Additional observations from a re-analysis of the deposited data

Results flagged for a closer look

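In 80 groups of 6 mice (10 genes, 8 groups), 4 values stood far from the other 5 by the gap to the nearest mouse relative to the range of the group, which chance gives in about 1 in 20 groups. In WT mice at 12 months, replicate 3 had a Ttr of 12.22, with the next mouse at 10.13, and its Folr1 of 5.48 was also apart from the next value of 4.62. Replicate 4 of the same group had the lowest Otx2, 4.01, with the next mouse at 5.34. In WT mice at 1 month, replicate 6 had an Aqp1 of 6.91, with the next mouse at 5.29, and this mouse also had the highest Ttr of its group, 13.50. Their causes were not tested.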

How the results depend on the processing

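None of the 10 genes passed between genotypes under any alternative or without any single mouse, and 9 passed from E14.5 to 1 month in WT mice under all of them. The number of all genes called between genotypes at E14.5, 1 in the analysis reported, was 120 in one fit of all 48 samples, 3 without the filter, 0 without the trend, and 2 with the stricter filter, quantile normalization, centring on the median gene or the set as covariate. At 1 month it was 24, and 15 at an adjusted p below 0.05 and 37 in the common fit. At 6 months it was 16, and 5 at 0.05 and 4 without the trend. At 12 months it was 8, and 3 at 0.05 and 520 in the common fit. From 6 to 12 months it was 1 in WT, and 0 at 0.05, 0 with the set covariate and 7 in the common fit, and 592 in V986*/+ mice, and 260 at 0.05, 101 in the common fit and 257 without the trend. Of the 10 genes, 1 instead of 2 passed from 1 to 6 months in V986*/+ mice with a robust variance prior.

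With the replicate number as a block, the genes called between genotypes were 2, 13, 30 and 2 in order of age, and 0 from 6 to 12 months in WT. The labels do not say whether mice of the same number are pairs. The block moved the interaction counts from 11, 1 and 10 to 254, 141 and 29, and array weights moved the first 2 to 150 and 2. Under the block Ttr (adjusted p = 0.070) and Cldn2 (adjusted p = 0.059) passed from E14.5 to 1 month in V986*/+ mice, and no other call on the 10 genes changed. Every sample correlated best with its own number in none of the comparisons. At E14.5, 4 of the 6 WT embryos correlated best with the V986*/+ embryo of their own number, so a shared structure there remains possible.

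Leaving out single mice gave 0 to 2 genes called at E14.5, 3 to 32 at 1 month, 5 to 21 at 6 months and 2 to 251 at 12 months, 0 to 2 (WT) and 209 to 814 (V986*/+) from 6 to 12 months, and 2 to 5 of the 10 genes from 1 to 6 months in V986*/+ mice. Genotype differences that changed sign ran, at E14.5, from -0.088 to 0.130 for Aqp1, -0.175 to 0.034 for Calml4, -0.042 to 0.146 for Cldn2, -0.147 to 0.027 for Folr1, -0.185 to 0.070 for Slc4a5, -0.019 to 0.132 for Sostdc1 and -0.043 to 0.174 for Ttr. At 1 month they ran from -0.051 to 0.371 for Calml4 and -0.025 to 0.575 for Kl, at 6 months from -0.791 to 0.073 for Slc4a5 and -0.30 to 0.17 for Sostdc1, and at 12 months from -0.21 to 0.44 for Cldn2 and -0.34 to 0.27 for Slc4a5. The change of Cldn2 from E14.5 to 1 month in WT ran from -0.30 to 0.23. None of these passed the test. Quantile normalization moved the median of all genes from E14.5 to 1 month from 0.02 to -0.11 in both genotypes, with 9 of the 10 genes called in WT and Ttr called in V986*/+ mice (adjusted p = 0.044). Quantile normalization turned the 12-month difference of Slc4a5 to -0.0090 and that step of Cldn2 to -0.27.

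Without the 2 mice farthest from the median Ttr, the genes related to Ttr were 1 of 9 at E14.5 (4 with all mice), and the lists related to Ttr were 1 of 8 at 1 month (2 with all mice). Centring on the median gene left Cldn2 at E14.5 at an adjusted p of 0.052. Signs turned at E14.5 for Cldn2 within replicates 4 to 6 (r -0.83) and Slc4a5 within replicates 1 to 3 (r -0.42), and without those 2 mice for striatum at E14.5 (0.30) and cortical hem and hippocampus at 1 month (-0.0074). The causes were not tested. Genes near the floor, such as Cldn2 in single mice, are limited by depth that the table does not give.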
